A study of Mus musculus with 10 samples.

Results

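The genes described here are 42 components of the Polycomb and trithorax systems that act on Hox genes: the subunits of Polycomb repressive complexes 1 and 2 (PRC1 and PRC2), the Mll and Set1 complexes that methylate lysine 4 of histone H3 (H3K4), the *Psip1* gene, and the demethylases of lysine 27 of histone H3 (H3K27). They were chosen by gene name, through the transcript accession of each probe. No measured value was applied as a rule, but earlier results of these data were known. They were represented by 63 probes, each spotted once, out of 55681 probes on the array. One probe stood for 24 of the genes, 2 probes for 15 and 3 probes for 3.

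Levels came from one-colour Agilent arrays of E14 mouse embryonic stem (ES) cells, a line of 129/Ola origin kept undifferentiated with 1000 U/ml Lif. Cells received plasmids for 5 guide RNAs (gRNAs) to the *Hottip* promoter with dCas9-VP160 (4 arrays), or for 5 gRNAs to the *Hoxa13* promoter, again with dCas9-VP160 (3 arrays), and control cells gave 3 arrays. dCas9-VP160 is a nuclease-dead Cas9 joined to repeats of the Vp16 activation domain. All cells were selected in 2 μg/ml puromycin for 24 h and RNA was taken 48 h after transfection. The control is labelled as control gRNAs, while the study's text describes control cells with dCas9 lacking VP160 and, in its methods, gRNAs without a target, so control arrays may differ from the other arrays in VP160 as well as in the gRNAs. Each culture was a pool of transiently transfected cells of 1 line, in which fewer cells expressing a gene and less RNA per cell cannot be told apart.

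Polycomb proteins keep silent Hox genes silent. PRC2 methylates H3K27, Cbx proteins of canonical PRC1 bind that mark, and Ring1 proteins of PRC1 add ubiquitin to histone H2A. Trithorax proteins oppose them: Mll complexes methylate H3K4 at active Hox genes, with Wdr5 as a shared core subunit and menin (*Men1*) and *Psip1* as partners that tether Mll to chromatin. In ES cells the Hox clusters are held by Polycomb complexes.

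By design the groups given dCas9-VP160 differed in their guide sequences, and 3 of the 10 are shown. They are in lower case, with the genomic PAM (the bases next to the site that Cas9 requires) in capitals. The guides come from the study's list of oligos and the PAM from RefSeq (GRCm38.p6).
mHottip_pro_sg1: gcagtaagaaggtaaactcgGGG
mHottip_pro_sg2: tctcctgactttagcggtccTGG
Hoxa13_Pro_sg4: cgggccgggggcgggccaatGGG
The first lies at chr6:52262646-52262665 on the minus strand and the second at chr6:52262605-52262624 on the plus strand, in the *Hottip* promoter. The last lies at chr6:52260912-52260931 on the minus strand, in the *Hoxa13* promoter. Each of the 10 guides matched exactly 1 of 32851 promoter windows of 300 bases without a mismatch, that of its intended gene. The 5 *Hottip* guides spanned chr6:52262547-52262665. Promoter windows were at hand for 33 of the 42 genes (49 windows). Among them, the closest match beside an NGG PAM on either strand had 7 to 8 mismatches for the *Hottip* guides and 4 to 7 for the *Hoxa13* guides. The match with 4 mismatches was that of Hoxa13_Pro_sg4 in the *Kmt2c* window. A match is a similarity of letters only and no measurement of binding.

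The targeted gene was examined first. The brighter of 2 *Hoxa13* probes had levels of 3.60, 4.16, 3.88 and 3.17 on the *Hottip* gRNA arrays, where it was well above background on 4 of 4. On the control arrays it had −5.84, −5.00 and −3.46, and on the *Hoxa13* gRNA arrays −3.68, −4.80 and −4.31, well above background on none of these 6. The *Hoxa13* gRNA arrays therefore did not show the gene their label names, and they are called arrays labelled *Hoxa13* gRNA from here on, with every direction drawn from them resting on that label. Levels throughout are log2 processed signals minus the 75th percentile of the same array, so that 0 is that percentile, and "well above background" is the flag that the scanner software gives each spot. Levels can be compared between arrays for the same probe, but not between probes.

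The share of probes flagged as above background ran from 31.9% to 41.4% over the arrays. Replicates 1 and 2 labelled *Hoxa13* gRNA were on one slide and all 8 other arrays were on another. For the arrays labelled *Hoxa13* gRNA against the control, the difference grew with brightness: the median difference was −0.00 for 10192 probes with a mean level below 0 and 0.82 for 2569 probes with a mean level above 4. For *Hottip* gRNAs against the control the same medians were −0.13 and 0.21. The 10 ES cell markers, *Pou5f1* and *Nanog* among them, were well above background on all 10 arrays. Control replicate 3 stood apart from the other control arrays: 7.28% of its spots were outliers, against 0.312% to 5.73% on the 9 other arrays, and the endoderm gene *Dab2* had 6.27 there, beside −0.38 and −0.92 on the other control arrays. A probe of the neural gene *Pax6* (A_52_P469306) had 6.32 there, beside −1.98 and −2.61. The differences from the control that moved most without this array are given both ways, and without it 0 member probes were called in each comparison. *Hottip* and *Kmt2a* (Mll1) were matched to no probe and are not analysed here.

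Most genes of this set were detected. A gene was counted as detected where 1 of its probes was well above background on the majority of the arrays of every group, and 38 of 42 genes were. On all 10 arrays, 35 of 42 were. Of the 63 probes, 44 (69.8%) passed that flag on every array, against 25.3% of all probes and 39.0% of those matched to a RefSeq gene.

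Every PRC2 gene of this set was detected by the majority rule. All 6 core genes had a probe well above background on 10 of 10 arrays: the methyltransferases *Ezh1* and *Ezh2*, the essential partners *Eed* and *Suz12*, and the histone-binding *Rbbp4* and *Rbbp7*. Of the 5 accessory genes, *Jarid2*, *Mtf2* and *Aebp2* were above background on every array. *Phf1* and *Phf19*, Polycomb-like proteins as *Mtf2* is, were above background on 8 arrays each. *Phf19* spread widely in the control alone, with levels of 2.15, 0.06 and −2.12.

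In PRC1 the paralogs were detected unequally. *Rnf2* (Ring1b), one of the paired ubiquitin ligases, was well above background on 10 of 10 arrays, while its paralog *Ring1* was on 0 of 10. All 6 Pcgf genes were detected on every array, and so were *Cbx2*, *Cbx6* and *Cbx7*, whereas *Cbx8* was above background on no array. Of the polyhomeotic genes, *Phc1* and *Phc2* were detected on every array, while the better of 2 *Phc3* probes was on 7. *Rybp*, *Yaf2* and *Kdm2b*, subunits of variant PRC1 complexes, were detected on every array. A probe that stays at background gives only an upper limit for its gene, and *Ring1* and *Cbx8* rested on 1 probe each.

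On the trithorax side, the H3K4 methyltransferases *Kmt2b*, *Kmt2c* and *Setd1b* were detected on 10 of 10 arrays and *Setd1a* on 9. The exception was *Kmt2d*, whose 3 probes were above background on 2, 0 and 0 arrays. Those 2 arrays were both labelled *Hoxa13* gRNA, and the probe was not tested. The shared core (*Wdr5*, *Ash2l*, *Rbbp5*, *Dpy30*), the tethers *Men1* and *Psip1*, and the H3K27 demethylases *Kdm6a* and *Kdm6b* were all detected on every array.

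**Figure D1:**
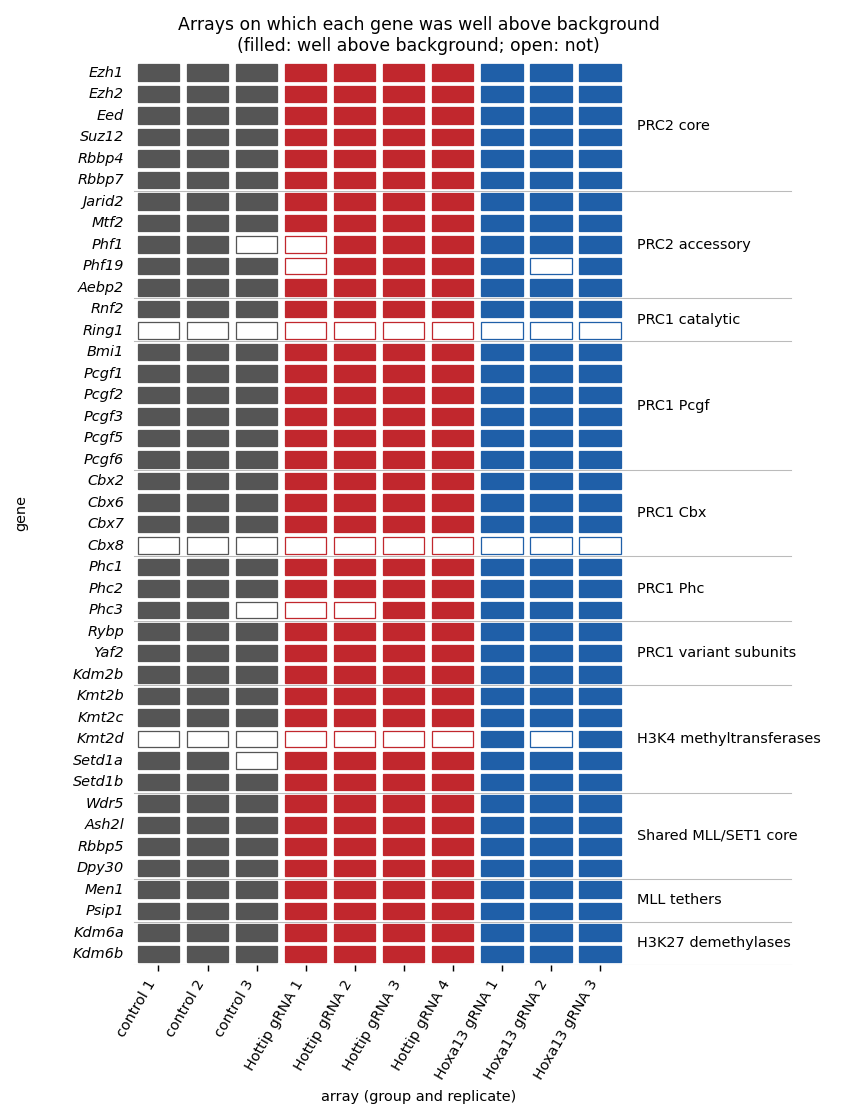
Detection of each gene (rows, grouped by role) on each of the 10 arrays (columns), for the probe of the gene that was above background on most arrays. Filled boxes are well above background and open boxes are not. *Ring1* and *Cbx8* are open on all 10 arrays.

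No Polycomb or trithorax member passed the test between any groups when the slide was not modelled. With the slide as a block 1 member probe was called in each comparison, an *Aebp2* probe after *Hottip* gRNAs and the second *Ezh1* probe in the others, and on the slide with all 3 groups that *Ezh1* probe was called in the comparisons with arrays labelled *Hoxa13* gRNA. The *Ezh1* calls rest on 1 array, on which the spot was not well above background. After *Hottip* gRNAs, 0 of 56 member probes tested differed from the control at an adjusted p under 0.05 (limma), against 0.718% of all 22830 probes tested. At an unadjusted p under 0.05, 2 of the 56 (*Pcgf5* and *Aebp2*) differed, both higher, against 8.05% of all probes (3.76% higher and 4.29% lower). A probe was tested if it had the flag on 3 or more of the 10 arrays. Of the member probes 7 did not, among them the only probes of *Ring1*, *Cbx8* and *Kmt2d*. The median log2 difference of the 56 was −0.00 and that of all probes −0.03. Values of all *Hottip* gRNA arrays and all control arrays were separate for 2 of 37 member probes with no missing array, against 10.4% of all such probes.

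For the arrays labelled *Hoxa13* gRNA against the control, 0 of 56 member probes were called, against 0.175% of all probes tested. At an unadjusted p under 0.05, 7 differed, 4 higher and 3 lower, against 11.0% of all probes (7.98% higher and 2.98% lower). The 4 were both *Rbbp7* probes and a probe each of *Ash2l* and *Dpy30*, and the 3 were probes of *Ezh1*, *Rbbp4* and *Pcgf3*. The median difference was −0.02 for the members and 0.19 for all probes. The groups did not overlap for 11 of 44 member probes with no missing array, against 18.3% of all such probes. Both comparisons share the 3 control arrays, so their values are not independent.

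Between *Hottip* gRNA arrays and arrays labelled *Hoxa13* gRNA, 0 of 56 member probes were called, against 0.381% of all probes, and 3 had an unadjusted p under 0.05, 2 higher and 1 lower after *Hottip* gRNAs, against 11.9% of all probes (4.06% higher and 7.87% lower). The groups did not overlap for 5 of 41 member probes, against 14.6% of all such probes. The smallest adjusted p of any member was 0.445, 0.408 and 0.280 in the 3 comparisons. The median standard error of a member's difference was 0.41 after *Hottip* gRNAs and 0.45 for arrays labelled *Hoxa13* gRNA. Of the 56 member probes, 28 were higher and 28 lower in both comparisons against the control. Under 5 other scalings, of which 2 were chosen after seeing the data, the share higher lay between 35.7% and 73.2% after *Hottip* gRNAs and between 33.9% and 51.8% for arrays labelled *Hoxa13* gRNA, so no direction can be given for the set.

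**Figure D2:**
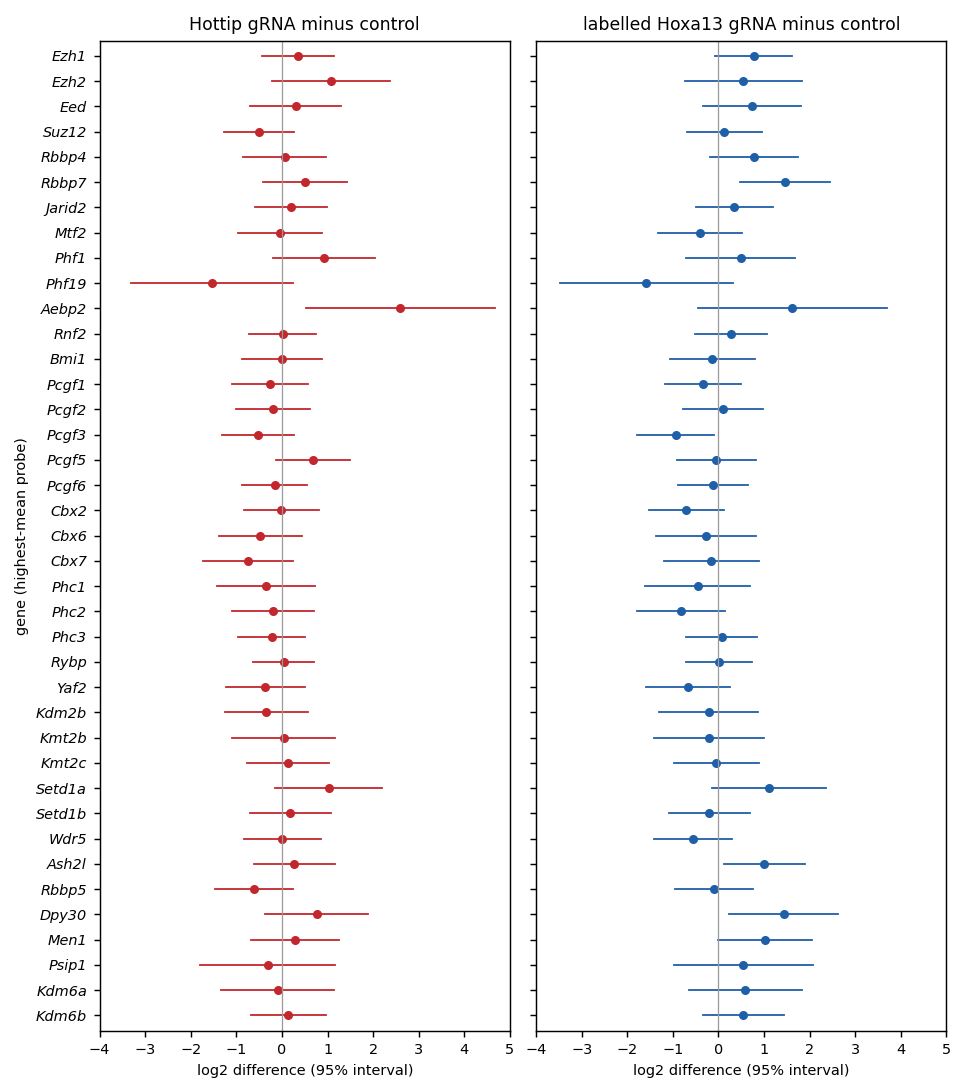
Log2 difference from the control (points) with its 95% interval (lines) from limma, for the highest-mean probe of each of 39 tested genes, after *Hottip* gRNAs (left) and on arrays labelled *Hoxa13* gRNA (right). No gene reached an adjusted p under 0.05, and most intervals include 0. The mean that picks the probe is over all arrays, the compared groups included. Probes not plotted can differ: *Aebp2* had 0.43 after *Hottip* gRNAs and *Ezh1* −2.54 on arrays labelled *Hoxa13* gRNA.

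*Ezh2*, the main PRC2 methyltransferase of ES cells, had levels of 2.87, 3.03 and 0.89 on the control arrays. It had 2.97, 3.72 and 3.32 on *Hottip* gRNA replicates 1, 3 and 4 (the spot of replicate 2 was marked as an outlier and left out) and 2.78, 2.47 and 3.16 on arrays labelled *Hoxa13* gRNA. Control replicate 3 stood below all others, and the 8 other arrays lay between 2.47 and 3.72. The difference after *Hottip* gRNAs was 1.07 (standard error 0.58, 95% interval −0.21 to 2.36, adjusted p = 0.755, limma), among the 3 largest of the member probes above background on all 10 arrays. With single arrays left out it lay between 0.39 and 1.46, the lower value being that without control replicate 3.

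*Ezh1*, the paralog of *Ezh2*, had 3 probes that did not move alike. The first (A_55_P2155942) had 1.00, 0.58 and 1.41 in the control, 1.70, 1.45, 1.44 and 0.82 after *Hottip* gRNAs, and 1.65, 2.03 and 1.62 on arrays labelled *Hoxa13* gRNA. The second (A_55_P2082869) had 1.63, 1.38 and 2.01 in the control, 1.77, 0.90, 2.34 and 1.69 after *Hottip* gRNAs, and −0.39, 1.06 and −3.27 on arrays labelled *Hoxa13* gRNA. So on the arrays labelled *Hoxa13* gRNA the first probe was above every control value and the second below every one. The third probe (A_55_P2017086) ranged from −2.23 to −0.84 over all arrays, with all groups overlapping.

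For arrays labelled *Hoxa13* gRNA against the control, the differences of the 3 *Ezh1* probes were 0.77, −2.54 and −0.08 (adjusted p = 0.470, 0.447 and 0.949, limma). The second probe rested on *Hoxa13* gRNA replicate 3, the only array of that group on the slide of the others. Within that slide its difference was −4.94, with 1 array on one side, while without that array it was −1.34. The spot on that array, at −3.27, was not well above background. The lowest level with that flag on the array was −3.13, so the −4.94 sets a level at background against the control. No statement on *Ezh1* as a gene follows from probes that oppose each other.

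*Rbbp7*, a histone-binding subunit shared with other chromatin complexes, had the smallest p of the members on arrays labelled *Hoxa13* gRNA against the control. Its brighter probe had 4.08, 4.41 and 4.95 in the control, 5.10, 5.25, 4.96 and 4.67 after *Hottip* gRNAs, and 6.78, 5.74 and 5.31 on arrays labelled *Hoxa13* gRNA. The other probe had 3.82 and 4.18 in the control (replicate 3 left out), 4.67, 4.88, 4.82 and 4.21 after *Hottip* gRNAs, and 5.53, 5.21 and 5.04 on arrays labelled *Hoxa13* gRNA. The brighter probe's spot on *Hottip* gRNA replicate 4 was saturated, so its 4.67 is a lower limit. It was the only saturated spot of the members. With either probe every array labelled *Hoxa13* gRNA lay above every control array, and with the other probe above every *Hottip* gRNA array too. The differences from the control were 1.46 (standard error 0.45) and 1.26 (0.41), with adjusted p-values of 0.408 and 0.443 (limma).

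These *Rbbp7* differences belong to the brightest probes, whose median difference was 0.82 in the same comparison. The *Gapdh* probe with no saturated spot (A_55_P2186027) differed by 1.00 there (adjusted p = 0.458, limma), and the 6 other *Gapdh* probes were saturated on 2 to 9 arrays. On the authors' log2 values the brighter *Rbbp7* probe differed by −0.03 and after quantile normalization by 0.48. Within the shared slide the brighter probe differed by 0.83 and the other by 1.04. The part of brightness in the *Rbbp7* values was not tested further. Of 9 member probes with a mean level above 4, the median difference was 0.78, close to that of all probes so bright.

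Of the other PRC2 core genes, *Eed* and *Suz12* differed from the control by 0.30 and −0.51 after *Hottip* gRNAs. On arrays labelled *Hoxa13* gRNA they differed by 0.73 and 0.13. The *Eed* probe was also a bright one, and its 0.73 lay between −0.15 and 1.17 over the alternatives. The 2 *Rbbp4* probes differed by 0.06 and −0.81 after *Hottip* gRNAs, with the second below every control value on every *Hottip* gRNA array. On arrays labelled *Hoxa13* gRNA they differed in opposite directions, by 0.78 and −1.16. The latter lay between −1.61 and −0.54 with single arrays left out.

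**Figure D3:**
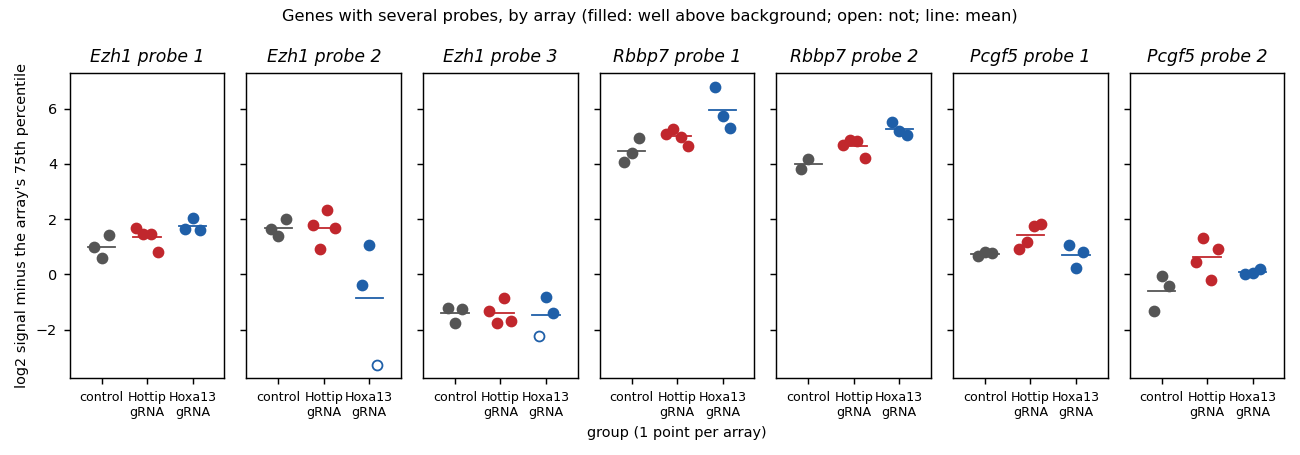
Levels of the 3 *Ezh1*, 2 *Rbbp7* and 2 *Pcgf5* probes on each array (points; filled where well above background) with the group mean (lines), in log2 units relative to the array's 75th percentile. The second *Ezh1* probe is low on the 3 arrays labelled *Hoxa13* gRNA while the first is not, and both *Rbbp7* probes are highest there. Levels are to be compared within a panel only.

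Among PRC2 accessory genes, *Jarid2*, which helps bring PRC2 to its targets, had 3.71, 4.14 and 4.61 in the control, 4.52, 4.47, 4.56 and 3.86 after *Hottip* gRNAs, and 4.19, 4.64 and 4.66 on arrays labelled *Hoxa13* gRNA. All groups overlapped, and the differences from the control were 0.20 (95% interval −0.60 to 0.99) and 0.35 (−0.50 to 1.20). *Aebp2* had the largest single difference after *Hottip* gRNAs, 2.60 with its probe A_55_P2165539 (adjusted p = 0.452, limma). That value compares 2 *Hottip* gRNA arrays, 2.77 and 2.06, with −0.64, −1.48 and 1.56 in the control, since 2 *Hottip* gRNA spots and 1 other were left out as outliers, and without control replicate 3 it was 3.47. With the slide as a block it was called (adjusted p = 0.0189, limma). The median level of the spots around it on the array was also higher after *Hottip* gRNAs, by 1.40, whose part in the value was not tested. The other *Aebp2* probe, measured on all arrays, differed by 0.43. *Phf19* differed by −1.54 and −1.58 in the 2 comparisons (adjusted p = 0.736 and 0.485, limma), and its control values overlapped with both groups. These values rest on single control arrays: they were −0.48 and −0.52 without control replicate 1 and −2.62 and −2.66 without control replicate 3. *Mtf2* differed by −0.04 and −0.40 with one probe and by −0.14 and 0.22 with the other. *Phf1* differed by 0.92 and 0.49, and by 0.35 and −0.08 without control replicate 3.

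In PRC1, *Rnf2* differed from the control by 0.01 (95% interval −0.72 to 0.75) and 0.28 (−0.51 to 1.07). *Bmi1* (Pcgf4) had −0.09, −0.40 and −0.77 in the control, −0.88, −0.29, 0.12 and −0.66 after *Hottip* gRNAs, and −1.09, −0.59 and 0.02 on arrays labelled *Hoxa13* gRNA, with its brighter probe. With that probe the differences from the control were −0.01 (95% interval −0.89 to 0.87) and −0.13 (−1.07 to 0.80). The other *Bmi1* probe (A_55_P2170335), above background on 9 arrays, differed by −0.01 and −0.61. The −0.61 lay between −1.02 and −0.23 over the alternatives.

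*Pcgf5*, which belongs to a variant PRC1, had the smallest p of the members after *Hottip* gRNAs. Its second probe (A_55_P2150555) had −1.34, −0.05 and −0.42 in the control, 0.45, 1.33, −0.19 and 0.91 after *Hottip* gRNAs, and −0.00, 0.05 and 0.21 on arrays labelled *Hoxa13* gRNA. Its first had 0.68, 0.80 and 0.76 in the control, 0.93, 1.18, 1.75 and 1.84 after *Hottip* gRNAs, and 1.08, 0.22 and 0.79 on arrays labelled *Hoxa13* gRNA. The first probe's 4 *Hottip* gRNA values all exceeded the control values, while those of the second overlapped with them. The differences after *Hottip* gRNAs were 0.68 and 1.23 (adjusted p = 0.755 and 0.445, limma), and both stayed above 0 in every alternative run.

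The Cbx genes encode the subunits of canonical PRC1 that read H3K27 methylation. *Cbx2* had 0.77, 0.52 and 0.73 in the control, 0.36, 0.55 and 1.05 after *Hottip* gRNAs (replicate 4 left out), and −0.37, 0.08 and 0.19 on arrays labelled *Hoxa13* gRNA. The last group lay below both others, and its difference from the control was −0.70 (95% interval −1.53 to 0.12, adjusted p = 0.479, limma). *Cbx7*, the prominent Cbx protein of ES cells, had −0.81, 0.42 and 0.53 in the control, −0.86, 0.11, −0.86 and −1.17 after *Hottip* gRNAs, and 0.04, −0.36 and −0.01 on arrays labelled *Hoxa13* gRNA. Its differences were −0.74 and −0.16, with all groups overlapping.

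**Figure D4:**
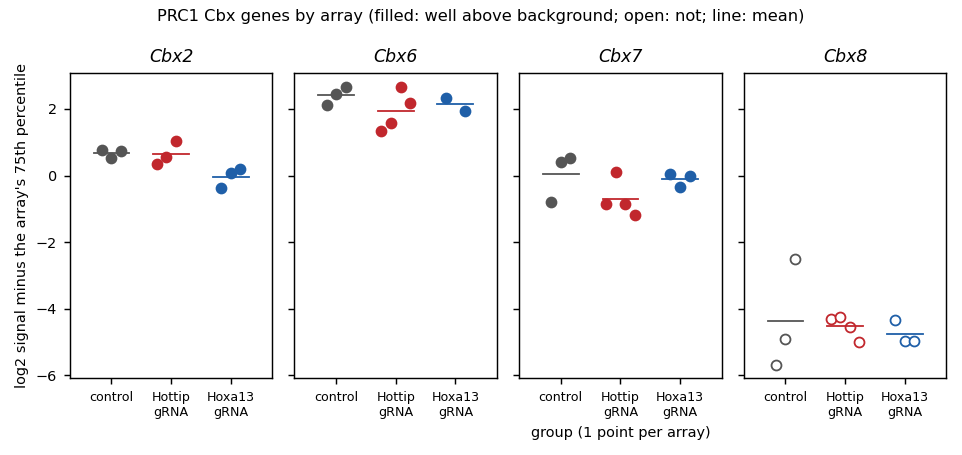
Levels of the brightest probe of each Cbx gene of the set on each array (points; filled where well above background) with the group mean (lines), in log2 units relative to the array's 75th percentile. *Cbx8* is above background on no array, and with these probes the groups of *Cbx2*, *Cbx6* and *Cbx7* lie within 1 log2 unit of each other by their means. Levels are to be compared within a panel only.

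Of the remaining PRC1 genes, the Phc genes differed from the control by −0.36 to −0.20 after *Hottip* gRNAs and by −0.82 to 0.07 on arrays labelled *Hoxa13* gRNA. *Rybp*, *Yaf2* and *Kdm2b* differed by −0.81 to 0.04 and by −0.67 to 0.01. *Rybp* had the narrowest error among them, with 0.04 and 0.01 (standard errors 0.30 and 0.32). *Pcgf3* had −0.53 and −0.94 (adjusted p = 0.875 and 0.447, limma), its arrays labelled *Hoxa13* gRNA all lying below the control arrays. *Pcgf1* differed by −0.27 and −0.33 and *Pcgf6* by −0.16 and −0.11.

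*Pcgf2* (Mel18), the paralog of *Bmi1*, differed by −0.21 and 0.10 with its brighter probe. Its other probe (A_51_P317740), above background on 4 arrays, differed by −1.25 and 0.65. The first of these rests on 2 *Hottip* gRNA values that lay far apart, 0.32 and −4.54, and it ran from −3.68 to 1.18 with single arrays left out. The median level of the spots around it was higher after *Hottip* gRNAs, by 1.74, opposite in direction to the probe. *Cbx6* differed by −0.47 and −0.27 with its brightest probe and by 0.07 and 0.49 with the next. Its dimmest probe (A_55_P2111741), above background on 5 arrays, differed by 1.06 and 0.65, with −0.16 to 2.28 and −0.57 to 1.87 when single arrays were left out.

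*Wdr5*, the shared core subunit of the H3K4 methyltransferase complexes, had 3.01, 3.18 and 3.61 in the control, 3.34, 3.38 and 3.09 after *Hottip* gRNAs (replicate 1 left out), and 2.28, 2.69 and 3.13 on arrays labelled *Hoxa13* gRNA. The *Hottip* gRNA values lay within the control range, with a difference of 0.01 (95% interval −0.84 to 0.86), and the other difference was −0.56 (−1.41 to 0.29). *Dpy30*, another core subunit, had 4.28 and 4.32 in the control with its brighter probe (replicate 3 left out), 5.32, 5.62, 5.05 and 4.26 after *Hottip* gRNAs, and 6.46, 5.30 and 5.42 on arrays labelled *Hoxa13* gRNA. Those differences, 0.76 and 1.43 (adjusted p = 0.869 and 0.447, limma), were again those of a bright probe, and on the authors' log2 values the second was −0.01. The other *Dpy30* probe had 3.78, 4.03 and 1.39 in the control, 2.25, 3.27, 3.74 and 3.52 after *Hottip* gRNAs, and 5.20, 4.46 and 3.26 on arrays labelled *Hoxa13* gRNA, so its groups overlapped. Its differences, 0.12 and 1.24, were −0.72 and 0.40 without control replicate 3.

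*Ash2l* differed by 1.00 with its brighter probe and −0.52 with the other on arrays labelled *Hoxa13* gRNA. The 1.00 was again that of a bright probe, and it lay between 0.10 and 1.22 over the alternatives. In the control, however, both *Ash2l* probes had a mean of 4.08, so the probe with −0.52 was as bright there. *Rbbp5* differed by −0.62 and −0.10 in the 2 comparisons. The 4 tested probes of H3K4 methyltransferases differed by 0.03 to 1.03 after *Hottip* gRNAs and by −0.21 to 1.11 on arrays labelled *Hoxa13* gRNA, with *Setd1a* at the top of both. Control replicate 3 was not above background for *Setd1a* and had −1.20, below the 0.92 and 1.23 of the other control arrays, and without it the *Setd1a* differences were 0.27 and 0.35.

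*Men1*, which encodes the Mll partner menin, had 2.17, 1.94 and 2.85 in the control, 2.68, 2.93, 2.85 and 1.98 after *Hottip* gRNAs, and 4.13, 3.20 and 2.71 on arrays labelled *Hoxa13* gRNA, with its brighter probe. Its other probe had 0.64, 0.45 and 1.23 in the control, 0.30, −0.09, 0.46 and 0.68 after *Hottip* gRNAs, and 0.00, 0.05 and 0.04 on arrays labelled *Hoxa13* gRNA. On the last arrays the probes were apart in direction: 1.03 and −0.75 against the control (adjusted p = 0.458 and 0.468, limma). After *Hottip* gRNAs they gave 0.29 and −0.44, opposed as well.

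*Psip1* encodes a long isoform, p75, that tethers Mll, and a short one, p52, that lacks the Mll-binding domain. Which isoform each probe measures was not determined. With the probe measured on more arrays (A_51_P314111), *Psip1* had 3.67 and 3.84 in the control (replicate 3 left out). It had 4.21, 4.16, 4.54 and 3.80 after *Hottip* gRNAs, and 4.85, 3.79 and 4.37 on arrays labelled *Hoxa13* gRNA. The groups overlapped, and the differences were 0.43 (95% interval −0.53 to 1.38) and 0.59 (−0.42 to 1.59). The brighter *Psip1* probe had 1 usable control spot (4.13), beside 3.38, 4.46, 3.95 and 3.48 after *Hottip* gRNAs and 4.70, 5.28 and 4.06 on arrays labelled *Hoxa13* gRNA. Its differences were −0.31 and 0.55, so the 2 probes opposed each other after *Hottip* gRNAs. Among the demethylases, *Kdm6a* (Utx) differed by −0.10 and 0.59 and *Kdm6b* (Jmjd3) by 0.14 and 0.55. The *Kdm6a* value of 0.59 came from levels of 3.20, 1.95 and 0.77 on arrays labelled *Hoxa13* gRNA, and it was −0.02 without replicate 1 of that group and 1.19 without replicate 3.

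Where a gene had over 1 tested probe, the probes did not always share a direction. Of 15 such genes, the signs of the differences were the same for 9 after *Hottip* gRNAs, for 7 on arrays labelled *Hoxa13* gRNA, and for 8 between these groups. Among the 63 probes, 27 of 630 spots were left out as outliers, on 22 probes.

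When the slide was not modelled, trophoblast was the only marker list with called genes. Of 5 trophoblast markers, *Cdx2*, *Krt7* and *Gata3* were called higher after *Hottip* gRNAs. The summed signal of the 4 that had no missing array, relative to the 75th percentile, was 2.14 to 3.16 there, 0.248 to 0.361 in the control and 0.306 to 0.662 on arrays labelled *Hoxa13* gRNA, and *Elf5* was above background on no array. None of the ES cell, fibroblast, endoderm or neural markers was called, and *Postn*, *Lum*, *Afp* and *Nes* among them were above background on no array. Some of these markers nevertheless moved with a group. After *Hottip* gRNAs the endoderm gene *Gata6* differed from the control by 1.66 (adjusted p = 0.0929, limma) and the neural gene *Sox1* by −1.76 with its brighter probe (adjusted p = 0.121, limma), each without overlap of the groups. The summed signal of the 5 ES cell markers with no missing array was 74.6 to 162 in the control. It was 88.0 to 171 after *Hottip* gRNAs and 175 to 319 on arrays labelled *Hoxa13* gRNA, above both other groups. On the latter arrays *Nanog* (brighter probe) and *Pou5f1* differed from the control by 1.74 and 1.18 without overlap (adjusted p = 0.340 and 0.452, limma). Both are bright probes, whose median difference was 0.82 there, and the part of brightness was not tested. The summed endoderm signal was 2.86 to 79.0 in the control, 4.18 to 7.98 after *Hottip* gRNAs and 1.97 to 3.14 on arrays labelled *Hoxa13* gRNA, and the summed neural signal 3.04 to 14.0, 2.34 to 8.61 and 5.15 to 9.40. Other cells and a change of these genes within ES cells cannot be told apart here. A part of either in the members' values was not tested.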

How the data were processed

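Per the labels, RNA of 10 cultures was hybridised to 10 one-colour arrays on 2 slides. The authors deposited scanner files of Feature Extraction 11.5.1.1, holding for each spot a background-subtracted intensity (detrended on 8 of 10 arrays) and flags of 0 or 1 (other), and a table of log2 values whose columns rank spots as median signal minus background does. The submitters' notes name limma, without a version. That table was an alternative only.

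Control spots and outlier spots were left out, log2 was taken, and the 75th percentile of each array over its 59305 non-control spots was subtracted. Probes were named through RefSeq accessions (27656 of 55681 probes). Differences were fitted with limma 3.58.1 in R 4.3.3, 1 mean per group over all 10 arrays, with the prior variance from all probes. P-values were adjusted after Benjamini and Hochberg across 22839 probes, those with the above-background flag on 3 or more of 10 arrays, with 0.05 as the threshold. Exact permutation tests were two-sided, and intervals are 95%. The number of arrays limits the precision. The labels call replicates biological, and p-values measure the spread between these cultures.

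Every member is accounted for. One other gene, the results of a wider gene list, and one guide are not reported here. Values per array are given for 9 genes chosen by role, and for the 3 with the largest difference against the control among probes above background on all 10 arrays. *Pcgf5*, *Rbbp7* and *Dpy30* fell under the last part, and the values of *Aebp2*, *Phf19*, *Setd1a*, *Kdm6a* and *Pcgf2* were added after they were seen. The remaining members are given by differences and counts. Members and lists were chosen with earlier results of these data known. The procedure was tested on simulated data. Guides were compared with promoter windows of RefSeq (GRCm38.p6), requiring NGG. The array header names mm9, so no probe coordinates are given. Alternatives were other scalings, background correction, filters, blocks, probe averaging, and each array left out. Python 3.11.15 with pandas 2.3.3 and SciPy 1.17.1 made the tables.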

Additional observations from a re-analysis of the deposited data

Results flagged for a closer look

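Among the member probes with 4 values in the *Hottip* gRNA group, *Jarid2* (A_52_P370203) had 1 array far from the others: *Hottip* gRNA replicate 4 had a level of 3.86, while the other 3 lay between 4.47 and 4.56. The gap made up 0.869 of the range, which passes the 95% limit that Dixon's test sets for 4 values. Chance flags about 1 in 20 such groups, and 1 of 44 probes was flagged. Control replicate 1, at 3.71, was lower still.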

How the results depend on the processing

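No member was called under 24 of the 26 alternatives. The 2 others concern the slide. With the slide as a block, 1 member probe was called in each comparison, *Aebp2* (A_55_P2165539, adjusted p = 0.0189, limma) after *Hottip* gRNAs and the second *Ezh1* probe in the others (−4.94 and 4.95, adjusted p = 0.0265 and 0.0189). On the slide with all 3 groups only, 1 was called for arrays labelled *Hoxa13* gRNA against the control and 1 between the gRNA groups, that *Ezh1* probe again (adjusted p = 0.0471 and 0.0267). The *Ezh1* values rest on 1 array, on which the spot was not well above background. With each array left out in turn, 0 to 0 member probes were called in every comparison. Replicate numbers did not pair the samples (correlations of same-numbered arrays −0.23 to 0.14). With the replicate number as a block, 0 members and 13, 2 and 8 probes in all were called, against 164, 40 and 87.

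Detection gave 35 of 42 genes with all 10 arrays required, 40 with any array and 39 with the flag for positive and significant signal, in place of 38. The median difference of all probes on arrays labelled *Hoxa13* gRNA went from −0.23 to 0.27 with the setting. Of 4207 member values under alternatives, 368 changed sign without being called.

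Calls over all probes moved by more than 1.5 times under several settings, whose cause was not tested. After *Hottip* gRNAs they were 109 on the authors' log2 values, 5 with detection on all arrays, 413 with the slide block, 36 on detrended arrays and 56 (without control replicate 2) to 240 with an array left out. On arrays labelled *Hoxa13* gRNA they were 86 centred on the median, 16 without a filter, 0 with detection on all arrays, 73 with the slide block, 22 with 2 groups only, 25 with an intensity trend, 8 with outlier spots left out of the percentile and 3 to 130 with an array left out (3 without control replicate 2 and also without labelled *Hoxa13* replicate 3, 130 without control replicate 3). Between the gRNA groups they were 31 without a filter, 0 with detection on all arrays, 133 with the slide block, 48 on the shared slide, 148 and 33 with other percentiles, 143 with the prior from tested probes, 34 on detrended arrays and 11 (without labelled *Hoxa13* replicate 2) to 116 with an array left out. The percentiles, the prior and the detrended arrays were chosen after seeing the data.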
